A study of Mus musculus with 11 samples.

Results

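Mature oligodendrocytes in which no Klk6 transcript was counted were taken from single-cell RNA sequencing (scRNA-seq) of mouse brain after sham surgery or middle cerebral artery occlusion and reperfusion (MCAO/R). A cell was included when at least 4 of the 6 oligodendrocyte genes Mog, Mag, Ermn, Opalin, Ugt8a and Aspa, fewer than 2 of the 7 genes P2ry12, Tmem119, Cldn5, Aqp4, Pdgfra, Kcnj13 and Dcx of other cell types, and no Klk6 unique molecular identifier (UMI, a tag that marks a single captured RNA molecule) were detected. The cells were thus chosen by their measured counts of these 14 genes. These conditions gave 8790 cells out of 132437 cells with over 500 genes, over 1000 UMIs and under 25% mitochondrial UMIs, or 6.64%. The same marker conditions without the one on Klk6 gave 10419 mature oligodendrocytes, of which 84.4% lacked Klk6.

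The right brain of 11 mice was sequenced, 1 library per mouse. The sham + WT group had 3 mice, the sham + Lrg1-/- group 3 (numbered 1, 2 and 5), the MCAO/R + WT group 2 and the MCAO/R + Lrg1-/- group 3 (also 1, 2 and 5). In MCAO/R a filament blocks the middle cerebral artery and is then withdrawn so that blood returns, and sham mice underwent surgery without the occlusion. The WT mice were young adult C57BL/6 males from a breeder, whereas the Lrg1-/- mice carried a conventional deletion of Lrg1, a secreted leucine-rich glycoprotein, in all cells, came from another facility after backcrossing to C57BL/6N and were given as somewhat older. Genotype, age, substrain and source cannot be told apart in these groups, and the duration of reperfusion was not given in the labels.

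Oligodendrocytes wrap axons of the central nervous system in myelin, a membrane stack rich in cholesterol and galactolipids that is held together by proteins such as myelin basic protein (Mbp), and they also feed the axon and buffer its ions. Mature cells are a continuum of states. Klk6, a secreted serine protease, marks states that are common in white matter and spinal cord, whereas states with high Ptgds or Apod are common in grey matter. Injured or inflamed brain adds a disease-associated state whose best known genes are Serpina3n, a serine protease inhibitor, and the complement component C4b.

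Every mouse supplied such cells, but unevenly. The sham + WT libraries held 1184, 739 and 398 of them, the sham + Lrg1-/- libraries 277, 75 and 73, the MCAO/R + WT libraries 552 and 1765 and the MCAO/R + Lrg1-/- libraries 187, 482 and 3058. Median UMIs per cell were 5936, 12760 and 13189 in sham + WT, 5882, 5372 and 5634 in sham + Lrg1-/-, 14874.5 and 13093 in MCAO/R + WT and 5182, 4541 and 3712.5 in MCAO/R + Lrg1-/-, so that the median of every Lrg1-/- library lay below that of every WT library. Whole libraries held between 37159497 and 171813031 UMIs.

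The label held better in the WT than in the Lrg1-/- libraries, and least well among the former in sham + WT mouse 1. A set of 6 myelin genes that did not enter the rule, among them Mbp, Mobp, Mal, Cnp and Cldn11, made up a median of 3.76, 4.78 and 4.95% of a cell's UMIs in sham + WT and 2.99 and 2.81% in MCAO/R + WT, against 2.005, 1.23 and 1.53% in sham + Lrg1-/- and 1.03, 1.06 and 0.785% in MCAO/R + Lrg1-/-. Cells of the same libraries with 0 or 1 of the 6 rule markers had 0.0450 to 0.267%. The medians of all 11 libraries were above those values. In sham + WT mouse 1, 7.01% of the cells had under 1% myelin UMIs, and its 220 cells with exactly 4 markers had a median of 1.38% microglial beside 1.83% myelin UMIs. In the other WT libraries 2.01 to 4.89% of the cells had under 1% myelin UMIs. This share was 27.1, 44 and 39.7% in sham + Lrg1-/- and 48.1, 48.5 and 59.8% in MCAO/R + Lrg1-/-. The 11 microglial marker genes took a median of 0.133 to 0.220% of UMIs in sham + WT and 0.116 to 0.155% in MCAO/R + WT, and 0.284 to 0.458% and 0.378 to 1.09% in the corresponding Lrg1-/- groups. For the 8 red blood cell genes the medians were 0.0322 to 0.0329%, 0.0219 to 0.0235%, 0.159 to 0.352% and 0.264 to 0.870% in the same order, and for the 10 choroid plexus genes 0.166 to 0.210%, 0.0716 to 0.0771%, 0.458 to 0.526% and 0.453 to 0.625%. Beside the genotype comparisons, a myelin-rich set was therefore also analysed. It kept cells in which the 6 myelin genes reached at least 1% of UMIs and over 4 times the microglial and over 4 times the red blood cell share, a choice made after seeing the data. It retained 4924 of the 8790 cells (56.0%), with 818 (69.1%), 691 (93.5%) and 380 (95.5%) cells in sham + WT, 143, 31 and 33 (41.3 to 51.6%) in sham + Lrg1-/-, 512 and 1679 (92.8 and 95.1%) in MCAO/R + WT and 63, 99 and 475 (33.7, 20.5 and 15.5%) in MCAO/R + Lrg1-/-. As the limit is one on myelin UMIs and kept such unequal shares, counts of myelin genes are given over all cells only. Counts of lipid synthesis genes in this set may depend on the same choice, which was not tested. Microglial and red blood cell shares were limited too, so counts of their markers in this set are in part fixed by the choice.

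**Figure D1:**
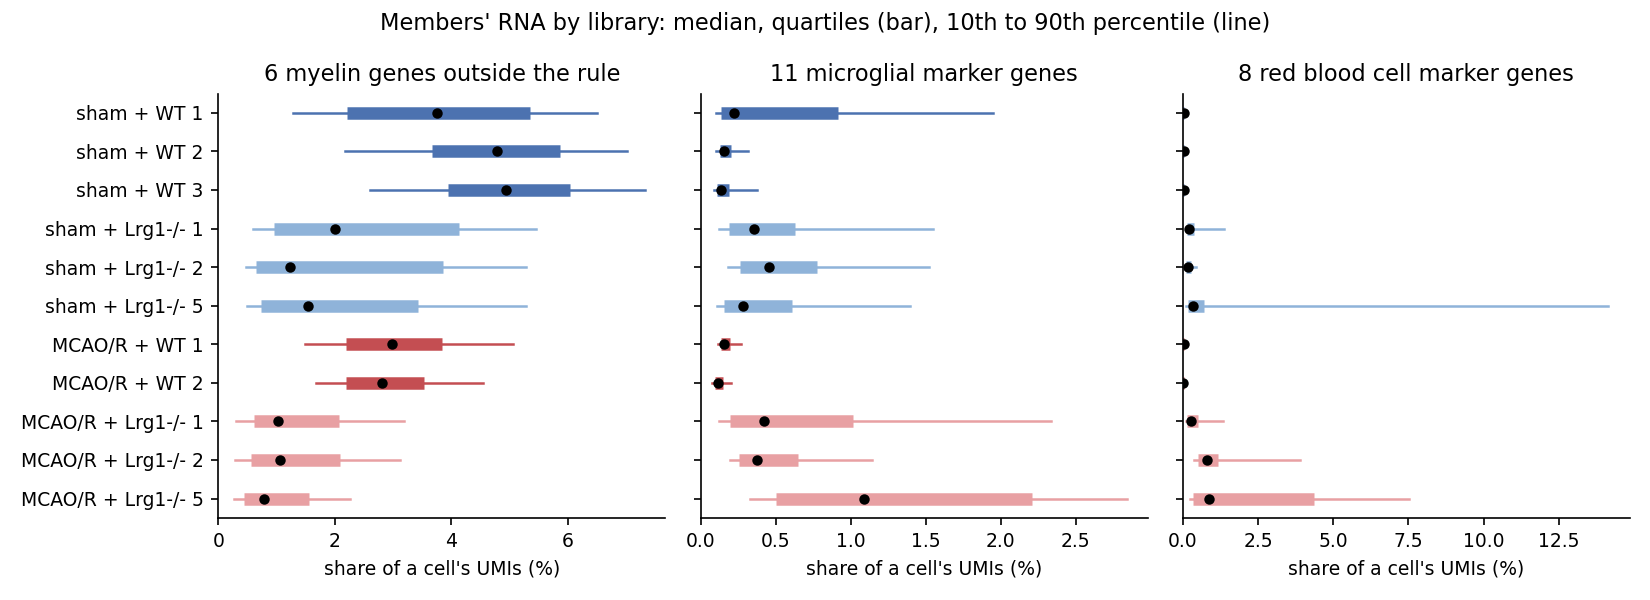
Share of a cell's UMIs (%) in 6 myelin genes, 11 microglial marker genes and 8 red blood cell marker genes among Klk6-negative mature oligodendrocytes, by library (points are medians, bars quartiles, lines the 10th to 90th percentile). The median myelin share lies between 2.81 and 4.95% in the 5 WT libraries and between 0.785 and 2.005% in the 6 Lrg1-/- libraries, with no overlap.

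The threshold of 4 markers cut through a gradient in some libraries. Cells with exactly 4 markers were 18.6, 6.36 and 5.28% of those included in sham + WT, 24.9, 29.3 and 30.1% in sham + Lrg1-/-, 11.96 and 12.2% in MCAO/R + WT and 44.4, 44.4 and 49.0% in MCAO/R + Lrg1-/-. Just inside the threshold, with 4 markers, the median myelin share was 1.83, 1.35 and 3.10% in sham + WT, and just outside, with 3 markers, it was 0.911, 0.0972 and 0.0714%. In MCAO/R + Lrg1-/- mice 1 and 2 it was 0.398 and 0.224% outside and 0.643 and 0.661% inside. The cells inside had medians of 0.896% microglial UMIs in mouse 1 and 0.909% red blood cell UMIs in mouse 2, above their myelin shares. In MCAO/R + Lrg1-/- mouse 5 the step was small, from 0.382% in 3123 cells outside to 0.521% in 1499 cells inside, and the latter had medians of 1.89% microglial and 3.05% red blood cell UMIs. Over all 3058 cells of that library, which supplied most of the 3727 in MCAO/R + Lrg1-/-, the medians were 1.09% microglial and 0.870% red blood cell against 0.785% myelin UMIs, so the label of mature oligodendrocytes did not hold by these medians there. Without that library the calls numbered 1223 in place of 2077 for surgery in Lrg1-/- and 3363 in place of 4419 between genotypes after MCAO/R, and of the 33 and 38 genes named for these comparisons 1, Dab1 in the former, lost its call. On the Klk6 side the cells with exactly 1 Klk6 UMI, which were left out, had median myelin shares of 3.27, 4.81 and 4.87% in sham + WT, close to those of the cells included. Cells with 4 or more markers were left out where 2 or more genes of other cell types were detected, and this took 41.3 to 46.2% of them in sham + WT, 59.4 to 85.9% in sham + Lrg1-/-, 24.5 to 27.8% in MCAO/R + WT and 32.01 to 69.8% in MCAO/R + Lrg1-/-. Over the series 2034 barcodes (1.56%) occurred in 2 or more libraries, but only 5 among the cells described here (0.0569%). The lowest UMI total of any barcode was 500 in 7 libraries and 551 to 770 in the other 4, which were the 3 sham + Lrg1-/- libraries and MCAO/R + Lrg1-/- mouse 1, and whether this lower limit bears on the genotype comparisons was not tested after sham, where all 3 Lrg1-/- libraries had it. After MCAO/R the genotypes differed in 4419 genes with, and in 4616 genes without, Lrg1-/- mouse 1.

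Klk6-negative cells were set beside the Klk6-positive ones in the 9 libraries with at least 20 cells of both kinds. Since the absence of Klk6 chose the cells, the values are a description without a test. Ptgds, the prostaglandin D synthase of grey matter oligodendrocytes, had a mean of 12079 CPM (UMI counts of the cells summed per mouse, scaled to a common total) in Klk6-negative and 4350 CPM in Klk6-positive cells and was higher in the former in 9 of 9 mice. Synpr, a synaptic vesicle protein, stood at 133 against 24.7 CPM and Slc13a1, a sulfate carrier, at 20.02 against 3.14 CPM, again in 9 of 9 mice. Gabrr2, a GABA receptor subunit, Kif21b, a kinesin, and Lypd6 were higher in 9 of 9 mice as well. In the other direction S100b, a calcium-binding protein, averaged 42.2 against 476 CPM, Hopx, a homeodomain protein without DNA binding, 27.1 against 251 CPM and Nkx2-9, a homeobox transcription factor, 1.62 against 52.6 CPM, and each was lower in all 9 mice. Klk8, another kallikrein, averaged 6.48 against 50.7 CPM but was lower in 5 of the 9 mice, all of them MCAO/R mice, and slightly higher in the 4 sham mice.

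The median log2 fold change of Klk6-negative against Klk6-positive cells, in an edgeR fit with the mouse as a term, was 0.02 over 11541 genes. It was 0.62 over 23 immediate early genes, transcription factors and regulators that a cell switches on within minutes of a stimulus, and -0.50 over 23 genes of cholesterol synthesis and uptake. Over 9 microglial and 9 endothelial marker genes it was 0.41 and 0.89. These medians are descriptions too. The fit called 18.1% of the genes, 11.4% higher and 6.67% lower in Klk6-negative cells, and as the rule chose the cells in this contrast nothing is read from these shares. Median UMIs were 3712.5 to 14874.5 in Klk6-negative and 5723.5 to 23949 in Klk6-positive cells and were higher in the positive cells of every library. The part of depth and of other RNA in these values was not tested.

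Klk6-negative cells made up most mature oligodendrocytes in every mouse. To hold the total depth constant, cells were thinned to 2000 UMIs, which left out 4 to 325 shallower mature cells per library. Equal totals need not hold equal oligodendrocyte RNA, as the median myelin share was lower in every Lrg1-/- than in every WT library. Whether this bears on the genotype differences below was not tested. The share then averaged 92.4% ± 1.97 (SD, n = 3) in sham + WT, 97.3% ± 1.44 (n = 3) in sham + Lrg1-/-, 92.5% ± 2.82 (n = 2) in MCAO/R + WT and 86.3% ± 4.91 (n = 3) in MCAO/R + Lrg1-/-. The change with surgery was -5.51 percentage points and did not pass a two-sided exact permutation test stratified by genotype (p = 0.06, n = 11). Without thinning the shares averaged 87.2, 90.1, 81.5 and 76.2%, and the change was -9.75 points (exact permutation p = 0.02). Genotype moved the thinned share by -0.646 points (exact permutation p = 0.8). Both are averages over unlike strata. Surgery changed the mean by 0.0233 points in WT and -11.04 points in Lrg1-/-, and the genotypes differed by 4.89 points after sham, where each Lrg1-/- mouse (95.9, 98.8 and 97.3%) was above each WT mouse (93.7, 93.5 and 90.2%), and by -6.18 points after MCAO/R. Whether these differences differ from each other was not tested, and without thinning the sham groups overlapped. A smallest p of 0.005 was possible in these tests.

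As a share of all filtered cells, Klk6-negative mature oligodendrocytes averaged 6.76% ± 2.27 in sham + WT, 2.17% ± 0.804 in sham + Lrg1-/-, 9.86% ± 6.09 in MCAO/R + WT and 4.85% ± 3.55 in MCAO/R + Lrg1-/-. The Lrg1-/- mice were lower by 4.80 points on average (exact permutation p = 0.04, n = 11), and without MCAO/R + WT mouse 2, the library with 14.2%, the difference was -2.65 points (p = 0.2375). The rule asks for 4 detected markers and leaves out cells with 2 or more genes of other cell types, which took a larger share in each Lrg1-/- group than in the WT group of the same surgery. With no gene of another cell type allowed the difference was -2.10 points (exact permutation p = 0.065). The part of depth and of this exclusion in the difference was not tested further.

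Lrg1 itself checked the genotype labels. In the summed Klk6-negative cells Lrg1 was listed with 1, 3 and 0 UMIs in the sham + WT mice, 208 and 1535 in the MCAO/R + WT mice and 0 in all 6 Lrg1-/- mice. These were 22.8 and 60.2 CPM after MCAO/R in WT. In the deepest Lrg1-/- library a count of 0 allows up to 0.186 CPM and in the shallowest up to 4.78. The other filtered cells of the MCAO/R + WT mice held 140 and 124 CPM, more than the oligodendrocytes, and those of the Lrg1-/- mice held 1 Lrg1 UMI in all.

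The 4 groups were then compared on the UMIs summed per mouse, in a single edgeR model over all 11 mice. A gene was called at an adjusted p under 0.05 and a change of over 0.25 on the natural log scale. The 14479 tested genes exclude those the rule used. MCAO/R and sham comparisons share no mouse between genotypes, but each group serves in 2 comparisons, so values are set side by side below without overlaps. Genes named for the size of their change were taken only where the 2 groups compared did not overlap. They also had to be at least as high in these cells as in other cells. For such genes both traits restate the choice and are not results.

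In WT mice glucocorticoid-responsive genes rose after MCAO/R, whereas myelin and cholesterol genes fell. Of 14479 genes 1306 rose (9.02%) and 1419 fell (9.8%), with a median log2 fold change of -0.01. Some genes were at least as high in these cells as in all other filtered cells, in the group where the gene was higher. Among these 7437 genes 770 rose and 1173 fell. As the level was taken in the group where the gene was higher, the choice depends on the direction of change. Nothing is therefore read from this split, here or in the comparisons below. Of 18 genes known to respond to glucocorticoids, 17 rose, none fell, and the median was 3.46, whereas Tsc22d3, a glucocorticoid-induced leucine zipper, was the exception and changed by 0.22. Fkbp5, a chaperone that restrains the glucocorticoid receptor, was measured at 9.06, 9.49 and 6.73 CPM in the sham + WT mice, 9.07, 7.90 and 11.1 in the sham + Lrg1-/- mice, 357 and 505 in the MCAO/R + WT mice and 115, 131 and 172 in the MCAO/R + Lrg1-/- mice. Its level was higher in each MCAO/R mouse than in any sham mouse (log2 fold change 5.65 ± 0.21 (SE), edgeR adjusted p = 2.04e-08 in WT). Zbtb16, a zinc finger repressor, was at 19.6, 18.8 and 18.2 CPM in sham + WT and 483 and 619 CPM in MCAO/R + WT (log2 fold change 4.86 ± 0.20 (SE), edgeR adjusted p = 2.54e-08). Sgk1, a kinase that controls ion channels, went from 113, 80.1 and 61.1 to 1925 and 2080.5 CPM (log2 fold change 4.56 ± 0.22 (SE), edgeR adjusted p = 1.13e-07). The metallothionein Mt2, which binds zinc and copper, went from 19.7, 12.4 and 10.1 to 373 and 164 CPM, a log2 fold change of 4.22.

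The same genes were also measured in the other cells. In MCAO/R + WT, Fkbp5 stood at 488 CPM in the summed oligodendrocytes and at 357 CPM in all other filtered cells, and Zbtb16 at 610 and 320 CPM. Arrdc2, an arrestin-domain protein, was at 367 CPM against 55.6, and Plin4, which coats lipid droplets, at 170 CPM against 26.5. By contrast Mt2 was lower in oligodendrocytes than in other cells, at 230 against 439 CPM.

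Among the glucocorticoid-responsive genes 17 of 18 had promoter windows in the RefSeq table (build GRCm38.p6), 28 windows of 300 bases running from 250 bases before to 50 bases after each start. They were searched on both strands for the palindromic consensus of the glucocorticoid receptor, which is AGAACA, then any 3 bases, then TGTTCT. It was found in the window of Sgk1 alone, and in 3 of 32851 windows of all genes (0.00913%). The Sgk1 window is shown because it carries the full consensus 175 bases before the start, in capitals. It lies at chr10:21993640-21993939 on the plus strand and covers upstream sequence, the start and the beginning of the transcript.
Sgk1: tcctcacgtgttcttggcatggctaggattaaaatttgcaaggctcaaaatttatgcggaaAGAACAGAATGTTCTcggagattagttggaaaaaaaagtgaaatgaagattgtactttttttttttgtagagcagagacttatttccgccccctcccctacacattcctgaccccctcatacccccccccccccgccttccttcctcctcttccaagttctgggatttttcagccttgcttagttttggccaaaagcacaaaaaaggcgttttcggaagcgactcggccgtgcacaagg
The match is a description of letters and not a measured binding site, and its absence in the other windows says only that these letters are not there.

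Genes of the disease-associated state rose as well. Of 22 such genes 12 rose and none fell in WT, with a median of 1.29, and this list shares Cdkn1a and Plin4 with the glucocorticoid-responsive one. Serpina3n was at 0.50, 1.27 and 0.59 CPM in the sham + WT mice, 1.91, 3.16 and 0 in the sham + Lrg1-/- mice, 129.8 and 118 in the MCAO/R + WT mice and 219, 199.9 and 97.2 in the MCAO/R + Lrg1-/- mice. It was near 0 in all 6 sham mice and at 97.2 CPM or more in every MCAO/R mouse (log2 fold change 7.23 ± 0.41 (SE), edgeR adjusted p = 3.29e-07 in WT). All other filtered cells held 0.531 CPM of it in sham + WT and 101 CPM in MCAO/R + WT, against 0.806 and 127 CPM in the oligodendrocytes. Cdkn1a, the cell cycle inhibitor p21, was at 54.2, 42.9 and 21.6 CPM in sham + WT and 1114 and 1064 CPM in MCAO/R + WT (log2 fold change 4.76 ± 0.34 (SE), edgeR adjusted p = 1.79e-06). Sgk3, a kinase of the Sgk family, stood at 61.01, 70.00 and 77.3 CPM in the sham + WT mice, 68.7, 61.6 and 83.6 in the sham + Lrg1-/- mice, 845 and 1248 in the MCAO/R + WT mice and 111, 139.9 and 236 in the MCAO/R + Lrg1-/- mice, with MCAO/R + WT apart from the 3 other groups. Lcn2, an iron-carrying acute phase protein, reached 242 and 305 CPM in MCAO/R + WT from 0 to 0.500 CPM in sham + WT, but its level in the other filtered cells was higher, at 893 CPM. Plin5, another lipid droplet coat, was at 0.10, 0 and 0 CPM in sham + WT and 26.7 and 38.5 CPM in MCAO/R + WT, and the G protein-coupled receptor Mchr1 at 0.10, 0 and 0.20 and 27.5 and 22.4 CPM. Both were among the 10 steepest rises by the rule for named genes. Hif3a, a hypoxia-inducible factor subunit, was at 1.29, 1.37 and 1.38 and 89.8 and 94.96 CPM (log2 fold change 6.09 ± 0.27 (SE), edgeR adjusted p = 4.86e-08).

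Myelin genes fell in WT. Of 25 tested genes of the myelin sheath 20 fell and none rose, with a median of -0.73. Pllp, plasmolipin of the myelin membrane, was at 814, 739.8 and 750.4 CPM in the sham + WT mice, 398, 404 and 453 in the sham + Lrg1-/- mice, 159.8 and 137 in the MCAO/R + WT mice and 269, 188 and 124 in the MCAO/R + Lrg1-/- mice (log2 fold change -2.37 ± 0.25 (SE), edgeR adjusted p = 2.90e-05 in WT). Gjb1, connexin 32, fell by 1.70 on the log2 scale. Lpar1, a lysophosphatidic acid receptor, fell by 2.07. Among 14 transcription factors of the lineage 6 fell, including Nkx2-2 (-1.35), Sox10 (-0.97) and St18 (-1.48), and 1 rose. The St18 call was lost without MCAO/R + WT mouse 2 (edgeR adjusted p = 0.0574).

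Lipid synthesis moved with the myelin genes. Of 23 genes of cholesterol synthesis and uptake 18 fell and none rose (median -1.0), and of 16 genes of galactolipid and very long chain lipid synthesis 9 fell and none rose (median -0.44). Hmgcs1, which makes the HMG-CoA that feeds the sterol pathway, was at 437, 431 and 460.4 CPM in the sham + WT mice, 268, 278 and 224 in the sham + Lrg1-/- mice, 107 and 144 in the MCAO/R + WT mice and 191, 144 and 118 in the MCAO/R + Lrg1-/- mice. Each MCAO/R + WT mouse lay below every sham mouse (log2 fold change -1.82 ± 0.19 (SE), edgeR adjusted p = 3.54e-05). Dhcr7, which completes cholesterol, fell by 2.03 on the log2 scale, Cyp51, a sterol demethylase, by 1.66 and Fdps, farnesyl diphosphate synthase, by 1.64. Elovl6, a fatty acid elongase, fell by 1.96 and Gal3st1, which makes sulfatide, by 1.25.

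Of the 23 cholesterol genes 16 had promoter windows, 19 in all, which were searched on both strands for TCACNCCAC, the core of a sterol regulatory element. It was present in the window of Hmgcs1 alone and in 408 of 32851 windows of all genes (1.24%). That window is shown because Hmgcs1 is the gene described above. It lies at chr13:119690101-119690400 on the plus strand (GRCm38.p6), and the capitals mark the match, which ends 129 bases before the start.
Hmgcs1: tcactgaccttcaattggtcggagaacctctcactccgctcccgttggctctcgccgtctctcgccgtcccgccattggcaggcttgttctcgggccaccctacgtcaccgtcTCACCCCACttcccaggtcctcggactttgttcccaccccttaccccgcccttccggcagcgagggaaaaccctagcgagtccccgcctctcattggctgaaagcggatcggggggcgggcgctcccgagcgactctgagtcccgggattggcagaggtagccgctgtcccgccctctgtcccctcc
As for Sgk1, the letters describe the sequence and say nothing of binding in these cells.

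Other groups moved less uniformly in WT. Of 25 genes of axon support and of ion and metabolite transport 8 fell and 3 rose. Slc6a9, a glycine transporter, fell by 1.84. Of 23 genes that differ between mature oligodendrocyte subtypes 5 rose and 10 fell. Car2, carbonic anhydrase 2, went from 2462, 2235 and 2763 to 439 and 353 CPM (log2 fold change -2.65 ± 0.30 (SE), edgeR adjusted p = 5.92e-05), and Qdpr, a pterin reductase typical of oligodendrocytes, from 1693, 1563 and 1733 to 332 and 332 CPM. Il33, an alarmin stored in oligodendrocyte nuclei, went from 518, 454 and 507 to 197 and 66.2 CPM (log2 fold change -1.91 ± 0.44 (SE), edgeR adjusted p = 0.00851) and was not called without MCAO/R + WT mouse 2 (edgeR adjusted p = 0.0732). Omg and Rtn4, myelin inhibitors of axon growth, fell by 1.46 and 1.18. Of 19 genes of the integrated stress response 6 rose and 2 fell, with Ddit4, an inhibitor of mTORC1, up by 2.38 and Sesn2 by 1.84. Hypoxia and glycolysis genes were divided, 4 up and 5 down of 29, and the rises included Slc2a1, the glucose transporter GLUT1 (1.63), and Bnip3, a mitophagy receptor (1.56). Of 29 death effectors 3 rose, among them Fas, a death receptor (2.37), and 2 fell, close to the shares over all genes (9.02% and 9.8%). Of 14 survival genes 4 rose and 1 fell, among them Bcl2l1 (1.64) and Bcl2 (1.61). Of 19 genes of endoplasmic reticulum folding 2 rose and 4 fell, with Hsp90b1 down by 0.86.

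Of 68 tested markers of 8 other cell types 12 (17.6%) were called with surgery in WT, close to the 18.8% over all genes. Among 9 microglial and 10 neutrophil markers no gene was called, of 8 choroid plexus markers 3 fell and of 7 red blood cell markers 1 fell. Endothelial markers were divided, 2 up and 2 down of 9, as were astrocyte markers, 1 up and 1 down of 9, and 1 neuronal and 1 mural marker rose. In the myelin-rich set the same WT comparison gave 17 of 18 glucocorticoid-responsive genes up and 18 of 23 cholesterol genes down, where 11.5% of all genes rose and 11.5% fell, and all 60 genes named here for this comparison kept an adjusted p under 0.05. Without MCAO/R + WT mouse 2 or mouse 1 the calls over all cells numbered 1482 and 1543 in place of 2725.

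**Figure D2:**
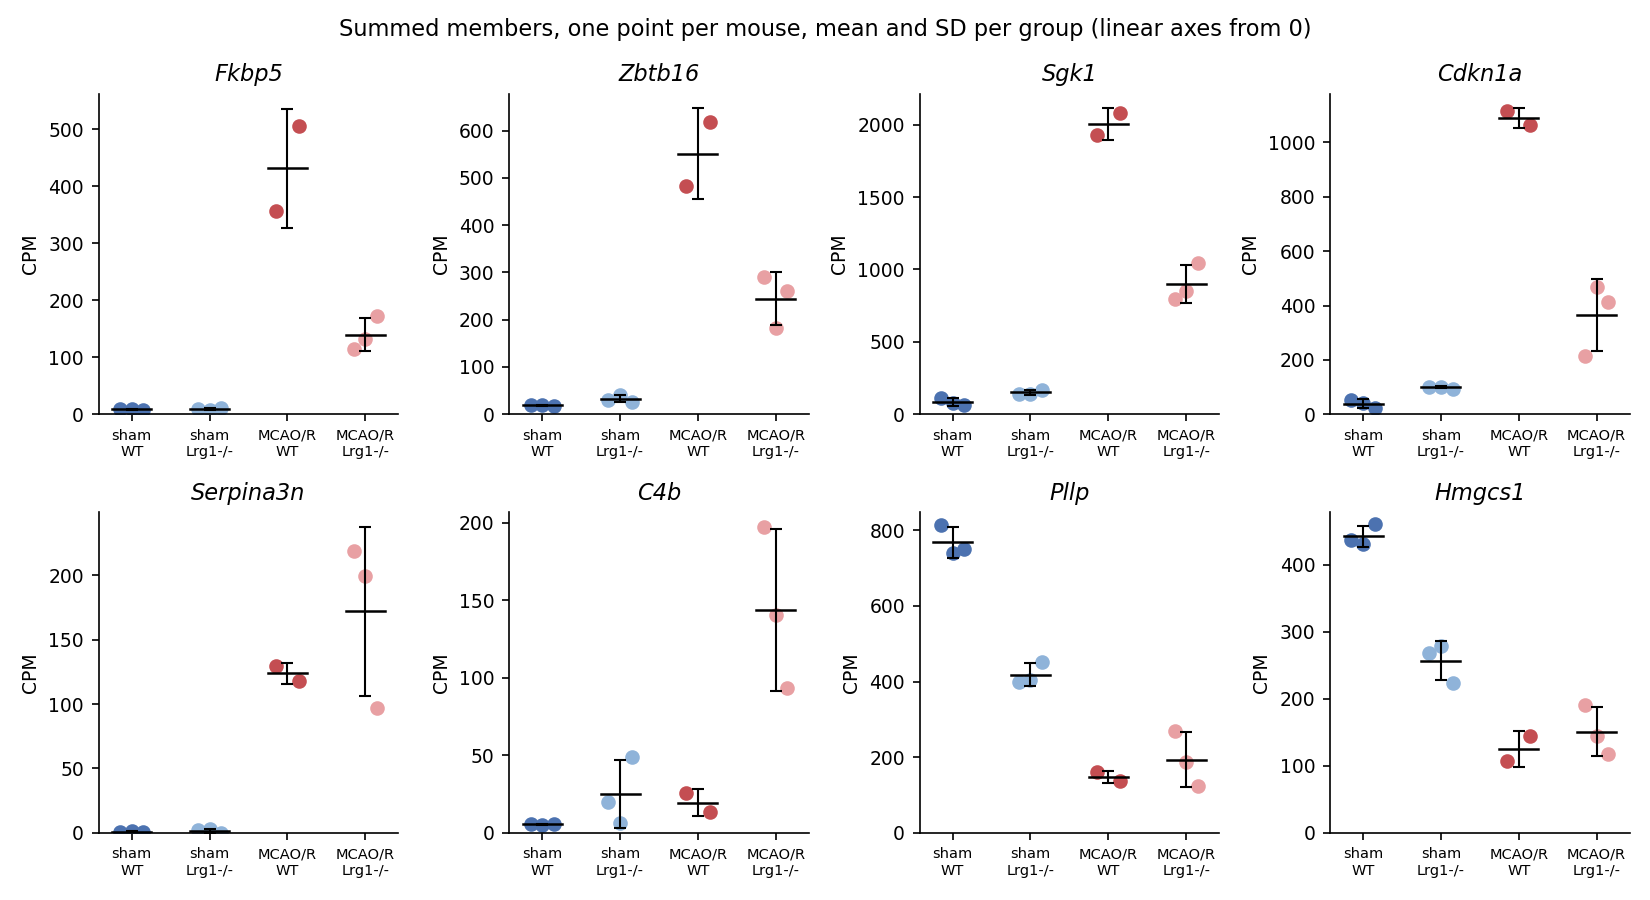
Level in CPM of 8 genes in Klk6-negative mature oligodendrocytes summed per mouse (points), with the group mean (line) and SD (error bar), on linear axes from 0. Fkbp5, Zbtb16, Sgk1 and Cdkn1a are highest in both MCAO/R + WT mice and intermediate in the 3 MCAO/R + Lrg1-/- mice, C4b is highest in MCAO/R + Lrg1-/-, and Pllp lies between 124 and 269 CPM in the 5 MCAO/R mice, below every sham mouse.

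The Lrg1-/- mice were compared with their own sham group next. Of 14479 genes 1162 rose (8.03%) and 915 fell (6.32%), with a median of 0.02. Among 7043 genes at least as high in these cells as in other cells, 194 rose and 778 fell, with the limit given for WT. The calls numbered 1109 without sham + Lrg1-/- mouse 1, 1381 without sham + Lrg1-/- mouse 2 and 1223 without MCAO/R + Lrg1-/- mouse 5, in place of 2077. Of the 18 glucocorticoid-responsive genes 14 rose and none fell, with a median of 1.76. Fkbp5 rose by 3.93 ± 0.27 (SE) on the log2 scale, Zbtb16 by 2.91 and Sgk1 by 2.59, and all 3 MCAO/R mice were above all 3 sham mice for each gene. Cdkn1a rose by 1.89 ± 0.32, from 101, 101 and 94.7 to 214, 468 and 412 CPM (edgeR adjusted p = 0.00287). Fam107a, an actin-associated stress protein, went from 4.77, 4.74 and 1.58 to 40.4, 44.3 and 45.7 CPM (log2 fold change 3.41 ± 0.25 (SE), edgeR adjusted p = 4.15e-05), and Gli2, a transcription factor of hedgehog signalling, from 3.34, 3.16 and 1.58 to 10.8, 27.9 and 33.8 CPM. In the myelin-rich set 13 of the 18 glucocorticoid-responsive genes rose and none fell.

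Disease-associated genes rose in 11 of 22 cases and fell in none, with a median of 1.10. Serpina3n rose by 6.55 ± 0.53 (SE). C4b was at 5.87, 4.85 and 5.34 CPM in the sham + WT mice, 19.6, 6.32 and 48.9 in the sham + Lrg1-/- mice, 25.6 and 13.4 in the MCAO/R + WT mice and 197, 140.5 and 93.5 in the MCAO/R + Lrg1-/- mice. Its 3 MCAO/R + Lrg1-/- values were the highest of all 11 mice (log2 fold change 2.58 ± 0.45 (SE), edgeR adjusted p = 0.00322). Apod, a lipid carrier, went from 1342, 1123 and 1270.2 to 3481, 2801 and 3574 CPM (log2 fold change 1.40).

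Myelin genes fell in 14 of 25 cases and rose in 1, with a median of -0.63. Pllp fell by 1.13 and Lpar1 by 1.34 on the log2 scale. Cholesterol genes fell in 5 of 23 cases (2 in the myelin-rich set) and rose in none, with Hmgcs1 down by 0.79 (edgeR adjusted p = 0.0111, and 0.0959 in the myelin-rich set). Several further groups had fewer calls in the myelin-rich set, in which 2.89% of all genes rose and 2.45% fell and some mice kept few cells. Of 34 genes of ribosome biogenesis 13 rose against 3, of 29 hypoxia and glycolysis genes 10 against 1, of 14 survival genes 7 against 1, and of 19 endoplasmic reticulum folding genes 6 against 0. Calr, calreticulin, rose by 0.93 over all cells and by 0.36 in the myelin-rich set (adjusted p = 0.31). Microglial markers rose in 7 of 9 cases (median 1.19) and neutrophil markers in 5 of 10 in the same comparison, and in the myelin-rich set in 4 of 9 and 3 of 7. The microglial count there is in part fixed, as microglial UMIs were limited in choosing that set.

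Single genes differed likewise. Saa3, serum amyloid A3, an acute phase protein, was at 0.48, 1.58 and 0 CPM in sham and 242, 66.1 and 62.6 CPM in MCAO/R on few sham counts (edgeR adjusted p = 9.72e-04), but its adjusted p was 0.12 in the myelin-rich set. Cxcl1, a neutrophil chemokine, rose by 3.93 over all cells and by 0.79 in the myelin-rich set (adjusted p = 0.636). Rgs20, a regulator of G protein signalling, was lost in that set (adjusted p = 0.229) and without sham + Lrg1-/- mouse 1 (edgeR adjusted p = 0.12). Among the falls, Gm12976 rested on 1 mouse, with 1.43, 152 and 11.1 CPM in sham and 0, 0.30 and 0.44 CPM after MCAO/R, and its log2 fold change went from -6.97 to -3.51 without sham + Lrg1-/- mouse 2. Wfdc18, a whey acidic protein family member, Jph4, a junctophilin of membrane contacts, and Bfsp2, an intermediate filament protein, fell by 2.70, 2.14 and 2.0 and kept an adjusted p under 0.05 in the myelin-rich set.

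**Figure D3:**
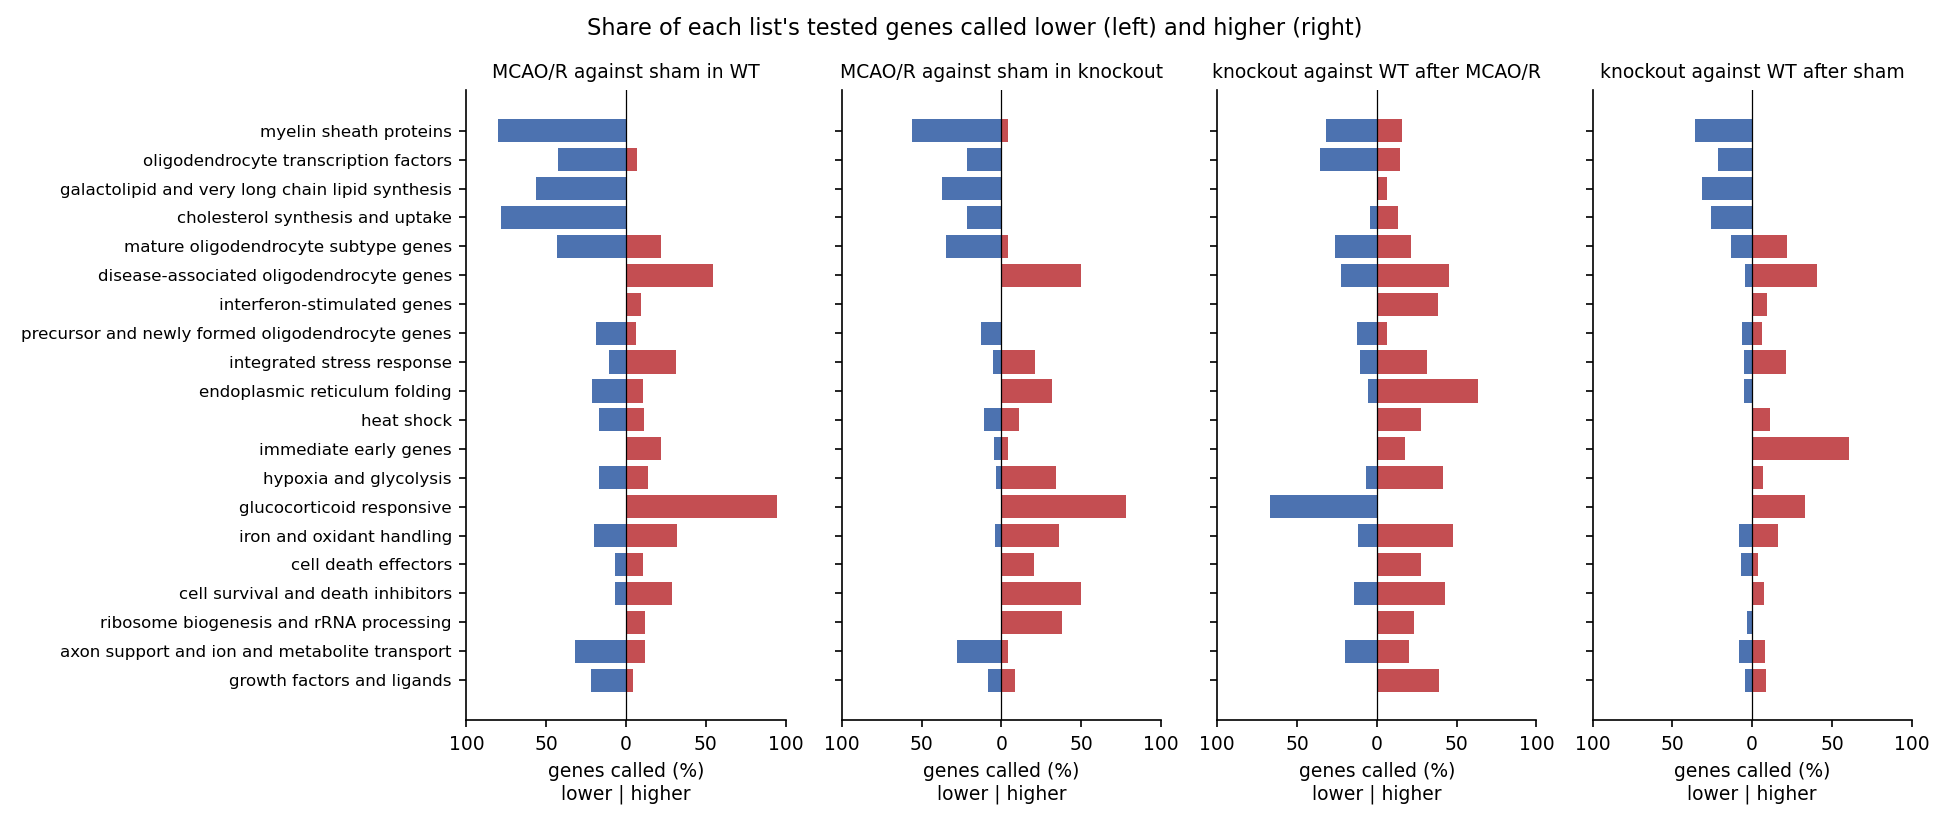
Share (%) of the tested genes of 20 lists that were called lower (blue, left) and higher (red, right) in Klk6-negative mature oligodendrocytes in 4 comparisons, over all cells. After MCAO/R in WT, 17 of 18 glucocorticoid-responsive genes were called higher and 20 of 25 myelin genes lower, and between genotypes after MCAO/R 12 of 18 glucocorticoid-responsive genes were lower in Lrg1-/-.

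Between genotypes after MCAO/R, 2324 genes were higher (16.1%) and 2095 lower (14.5%) in Lrg1-/- than in WT, with a median of -0.02, and without MCAO/R + WT mouse 1 or 2 the calls numbered 2695 and 1849 in place of 4419. In the myelin-rich set 9.01% of genes were higher and 7.32% lower. Among 6988 genes at least as high in these cells as in other cells, 329 were higher and 1842 lower in Lrg1-/-. This split is not read, as the level was taken in the genotype where the gene was higher. Glucocorticoid-responsive genes were lower. Of 18 genes 12 were lower and none higher, with a median of -1.04, and in the myelin-rich set 11 were lower and none higher. Fkbp5 differed by -1.61 ± 0.18 (SE), Zbtb16 by -1.18, Sgk1 by -1.15 and Cdkn1a by -1.57, and the 3 Lrg1-/- mice lay below both WT mice for each. Arrdc2 was at 274 and 379 CPM in WT and 48.5, 72.5 and 117 CPM in Lrg1-/-, and Pdk4, which restrains pyruvate dehydrogenase, at 54.6 and 65.3 and 11.4, 14.6 and 14.3 CPM (log2 fold change -2.12 ± 0.20 (SE), edgeR adjusted p = 3.44e-05). Ddit4 and Bnip3 were lower by 1.96 and 1.64, but the lists they were named from went mostly the other way. Of 19 integrated stress response genes 6 were higher and 2 lower (4 and 1 of 18 in the myelin-rich set). Of 29 hypoxia and glycolysis genes 12 were higher and 2 lower (8 and 2 in that set).

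Several of the named genes that were lower in Lrg1-/- had risen in WT. Phactr3, a phosphatase and actin regulator, was at 160.3, 188 and 188 CPM in the sham + WT mice, 131, 136 and 110.5 in the sham + Lrg1-/- mice, 1846 and 2553 in the MCAO/R + WT mice and 164, 258 and 285 in the MCAO/R + Lrg1-/- mice. Both MCAO/R + WT mice stood apart from the other 9 (log2 fold change -3.21 ± 0.21 (SE), edgeR adjusted p = 7.22e-06). Setdb2, a SET domain protein, was at 15.5, 15.1 and 15.04 CPM in the sham + WT mice, 7.64, 4.74 and 6.31 in the sham + Lrg1-/- mice, 131 and 210.2 in the MCAO/R + WT mice and 12.1, 7.58 and 10.6 in the MCAO/R + Lrg1-/- mice, and Phf11c, a PHD finger protein of a family of close copies whose reads may be shared, at 18.5 and 23.9 CPM in WT and 2.69, 1.52 and 1.45 CPM in Lrg1-/- (-3.70). Sox4, a transcription factor of immature neural cells, was at 22.2, 19.9 and 8.90 CPM in the sham + WT mice, 14.3, 45.8 and 9.47 in the sham + Lrg1-/- mice, 181 and 368 in the MCAO/R + WT mice and 22.2, 31.2 and 29.8 in the MCAO/R + Lrg1-/- mice (log2 fold change -3.27 ± 0.40 (SE), edgeR adjusted p = 1.61e-04). Ptprr, a receptor tyrosine phosphatase, was at 79.98 and 83.7 CPM in WT and 4.04, 6.37 and 3.53 CPM in Lrg1-/- (-4.23, and -5.99 in the myelin-rich set). Sgk3 was lower by 2.66 and Mchr1 by 3.16. All of these kept an adjusted p under 0.05 in the myelin-rich set.

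Higher in Lrg1-/- after MCAO/R was C4b (log2 fold change 2.88 ± 0.43 (SE), edgeR adjusted p = 5.12e-04). Abca8a, a lipid transporter, was at 55.2, 32.5 and 19.1 CPM in Lrg1-/- and 10.7 and 8.29 CPM in WT, and Tenm2, a teneurin adhesion receptor, at 33.7, 27.6 and 16.9 and 4.50 and 4.09 CPM (2.51). Piezo2, a mechanically gated channel, was at 80.1, 25.8 and 13.2 CPM against 4.60 and 2.48 CPM (log2 fold change 3.40 ± 0.70 (SE), edgeR adjusted p = 0.00331), and without MCAO/R + WT mouse 2 the adjusted p was 0.0539. Il33 and Car2 were higher by 1.73 and 1.45, the former with an adjusted p of 0.0963 without that mouse. Saa3 was higher by 3.62 over all cells but by 0.28 in the myelin-rich set (edgeR adjusted p = 0.829).

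Of 25 myelin genes 4 were higher and 8 lower in Lrg1-/- after MCAO/R (median 0.03), with Mal, a myelin membrane protein, lower by 0.99 and Tspan2, a tetraspanin, by 0.93 over all cells. Neither was called in the myelin-rich set, where Mal differed by -0.17 and Tspan2 by -0.34 (edgeR adjusted p = 0.516 and 0.102). As myelin UMIs, those of Mal among them, chose that set, these values are no check on either gene. Of 23 cholesterol genes 3 were higher and 1 lower over all cells, and 9 were higher and none lower in the myelin-rich set. That set kept far smaller shares of the Lrg1-/- than of the WT cells by their myelin UMIs. The part of this choice in the larger count was not tested.

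Several stress and immune groups had more genes higher than lower in Lrg1-/-, and most had fewer calls in the myelin-rich set. Of 19 endoplasmic reticulum folding genes 12 were higher and 1 lower (9 and 0 in the myelin-rich set). Sdf2l1, a chaperone partner, was at 24.1, 20.7 and 23.7 CPM in the sham + WT mice, 37.7, 20.5 and 17.4 in the sham + Lrg1-/- mice, 17.7 and 13.5 in the MCAO/R + WT mice and 59.3, 71.6 and 76.5 in the MCAO/R + Lrg1-/- mice, with no overlap between MCAO/R + Lrg1-/- and the other groups (log2 fold change 2.18 ± 0.23 (SE), edgeR adjusted p = 7.44e-05), and in the myelin-rich set it was higher by 1.34. Calr and Pdia6, a disulfide isomerase, were higher by 1.64 and 1.57, and by 1.19 and 0.79 in the myelin-rich set. Of 21 interferon-stimulated genes 8 were higher (1 in the myelin-rich set), of 29 death effectors 8 (2 higher and 1 lower in that set) and of 22 disease-associated genes 10 higher and 5 lower (6 and 3). Psmb8, an immunoproteasome subunit, Casp8, caspase 8, and Cebpb, an inflammatory transcription factor, had adjusted p values of 0.103, 0.33 and 0.473 there. Beside these results all 9 microglial, all 8 choroid plexus, 6 of 7 red blood cell and all 10 neutrophil markers were higher in Lrg1-/-, the microglial ones with a median of 2.16 on the log2 scale. In the myelin-rich set 7 of 9, 8 of 8, 6 of 6 and 6 of 7 were still higher, although microglial and red blood cell UMIs were limited in choosing it. The part of these markers in the results was not tested further.

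**Figure D4:**
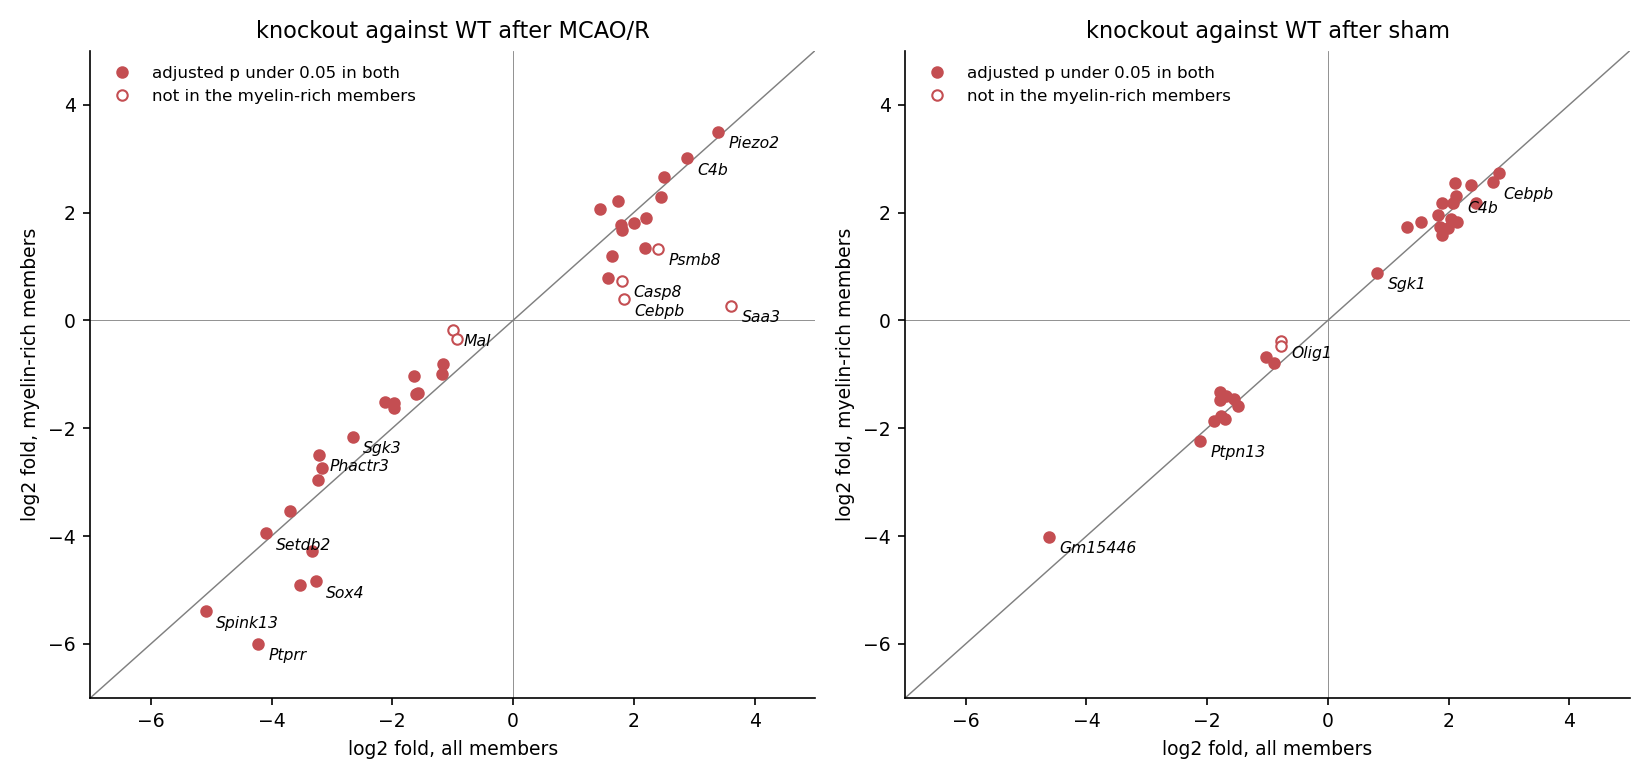
Log2 fold change of the genes named for Lrg1-/- against WT after MCAO/R (left) and after sham (right), over all Klk6-negative mature oligodendrocytes (horizontal) and in the myelin-rich set (vertical), with the line of equality. Filled points kept an edgeR adjusted p under 0.05 in the myelin-rich set, 32 of 38 after MCAO/R and 29 of 31 after sham. Open points such as Saa3, Psmb8, Casp8 and Cebpb did not. The myelin genes Mal and Tspan2 are open after MCAO/R too. Their points are no check, as myelin UMIs, those of Mal among them, chose that set.

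After sham surgery 9.6% of genes differed between genotypes, 720 being higher (4.97%) and 670 lower (4.63%) in Lrg1-/- than in WT, with a median of -0.06, and with the size factors of DESeq2 the split was 795 to 475. Leaving out any of the 6 sham mice brought the calls to between 534 and 882, and without sham + WT mouse 3 they numbered 534 in place of 1390. In the myelin-rich set 2.39% were higher and 1.14% lower. Among 7391 genes at least as high in these cells as in other cells, 159 were higher and 599 lower in Lrg1-/-, a split not read for the same reason as after MCAO/R. Immediate early genes were higher over all cells. Of 23 genes 14 were higher and none lower, with a median of 1.33, and 11 were higher in the myelin-rich set. Egr1, an immediate early transcription factor, was at 339.6, 283 and 202 CPM in the sham + WT mice, 721, 754 and 942 in the sham + Lrg1-/- mice, 436 and 466 in the MCAO/R + WT mice and 429.6, 676 and 717 in the MCAO/R + Lrg1-/- mice. Each sham + Lrg1-/- mouse was above each sham + WT mouse (log2 fold change 1.55 ± 0.22 (SE), edgeR adjusted p = 0.00188). Nr4a1, an orphan nuclear receptor, was at 49.5, 50.6 and 36.2 CPM in WT and 103, 185 and 218 CPM in Lrg1-/-, and Fosl2, an AP-1 subunit, at 8.96, 6.01 and 3.96 and 22.9, 17.4 and 47.3 CPM. Cebpb was at 40.1, 27.6 and 20.2 and 146, 270.2 and 192 CPM (log2 fold change 2.74 ± 0.31 (SE), edgeR adjusted p = 7.15e-04) and Socs3, a feedback inhibitor of cytokine signals, at 55.04, 40.4 and 27.3 and 93.6, 136 and 251 CPM. After thinning to 1000 UMIs the calls for Egr1, Nr4a1, Fosl2 and Socs3 were lost (edgeR adjusted p = 0.0558, 0.114, 0.457 and 0.283), at log2 fold changes of 1.17, 1.185, 1.39 and 0.716. Those for Fosl2 and Socs3 were also lost with the replicate number as a block (0.057 and 0.0927), and that for Fosl2 without likely doublets (0.089). The log2 fold changes were then 1.63 and 1.49 with the block and 1.76 for Fosl2 without likely doublets.

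Disease-associated genes were higher in 9 of 22 cases and lower in 1 (5 and 0 in the myelin-rich set), and glucocorticoid-responsive genes in 6 of 18 with none lower (3 and 0). C4b was at 5.87, 4.85 and 5.34 CPM in WT and 19.6, 6.32 and 48.9 CPM in Lrg1-/- (log2 fold change 2.13 ± 0.53 (SE), edgeR adjusted p = 0.0264), and this call was lost when any of 5 of the 6 sham mice was left out (edgeR adjusted p = 0.0538 to 0.104), with the replicate number as a block (0.107) and after thinning to 1000 UMIs (0.414). Cdkn1a was higher by 1.31 and Sgk1 by 0.81, and the calls for both were lost when any of 5 of the 6 sham mice was left out (edgeR adjusted p = 0.0575 to 0.0944 for Cdkn1a and 0.0516 to 0.0906 for Sgk1). Cdkn1a was higher by only 0.41 without likely doublets (adjusted p = 0.637) and by 0.33 after thinning (0.88), and its adjusted p was 0.122 with the replicate block. For Sgk1 it was 0.147 with the block and 0.254 after thinning. Myelin genes were lower in 9 of 25 cases and higher in none over all cells (median -0.49). Tspan2 and Gsn, gelsolin, were lower over all cells (-1.02 and -0.90), and the Gsn call was lost after thinning to 1000 UMIs (-0.75, edgeR adjusted p = 0.0688). Olig1, a transcription factor of the lineage, was at 744, 731 and 755 CPM in WT and 410.1, 438 and 459 CPM in Lrg1-/-, but was not called in the myelin-rich set (adjusted p = 0.138). Choroid plexus markers were higher in 7 of 8 cases, red blood cell markers in 5 of 7, mural markers in 5 of 9 (lower in 1) and microglial markers in 2 of 9 of this comparison. The myelin-rich set had 7 of 8, 4 of 6, 4 of 9 and 0 of 9 of them higher. Its red blood cell and microglial counts are in part fixed by the limits that chose it.

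Several genes named for the size of their difference after sham were unannotated transcripts. Gm15446 was at 22.2, 22.2 and 20.97 CPM in the sham + WT mice, 1.43, 0 and 0 in the sham + Lrg1-/- mice, 16.2 and 18.5 in the MCAO/R + WT mice and 1.35, 5.16 and 1.83 in the MCAO/R + Lrg1-/- mice. It was low in all 6 Lrg1-/- mice and between 16.2 and 22.2 CPM in all 5 WT mice (edgeR adjusted p = 0.00137 after sham). Gm37459 was higher in Lrg1-/- in both conditions, at 19.2, 17.2 and 19.8 CPM in sham + WT and 97.4, 90.05 and 52.1 CPM in sham + Lrg1-/-. AY036118 was at 148, 142 and 126 CPM in the sham + WT mice, 796, 795 and 559 in the sham + Lrg1-/- mice, 157 and 100.4 in the MCAO/R + WT mice and 318, 130.5 and 134 in the MCAO/R + Lrg1-/- mice, highest in the 3 sham + Lrg1-/- mice. Among protein-coding genes Ptpn13, a tyrosine phosphatase, was lower (33.5, 29.4 and 43.1 against 9.55, 6.32 and 6.31 CPM) and Robo1, an axon guidance receptor, higher (37.2, 30.99 and 55.6 against 184, 129.6 and 119.9 CPM). The Ptpn13 call was lost after thinning to 1000 UMIs (log2 fold change -1.06, edgeR adjusted p = 0.427).

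Whether the response to MCAO/R itself differed between genotypes was tested by the interaction of genotype and surgery. The interaction was called in 3.65% of 14479 genes, of which 296 (2.04%) had a more positive and 232 (1.6%) a more negative effect in Lrg1-/-. Of 18 glucocorticoid-responsive genes 10 had a more negative effect and none a more positive one (median -1.67), and 5 in the myelin-rich set. Of 23 cholesterol genes 6 and of 25 myelin genes 5 had a more positive effect and none a more negative one. The myelin-rich set, where 1.74% of all genes had a more positive and 1.16% a more negative effect, had 6 cholesterol genes with a more positive one. The part of the choice by myelin UMIs in this count was not tested. Of 19 endoplasmic reticulum folding genes 6 had a more positive effect over all cells (median 0.69) and 0 in the myelin-rich set (median 0.31). The interaction calls numbered 65 in place of 528 without MCAO/R + WT mouse 2, and 238 to 345 without any other single WT or sham + Lrg1-/- mouse.

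The share of cells with a transcript was compared at 2000 UMIs per cell, with cells bearing at least 3 of 5 microglial markers and thinned alike as a reference for background. As for the Klk6 share, equal totals need not hold equal oligodendrocyte RNA in the 2 genotypes. Fkbp5 was detected in 1.83, 0.720, 53.4 and 23.3% of Klk6-negative oligodendrocytes in sham + WT, sham + Lrg1-/-, MCAO/R + WT and MCAO/R + Lrg1-/-, as group means. In microglia-marker cells the shares were 4.67, 3.50, 51.5 and 14.3%, so Fkbp5 was more frequent after MCAO/R in both. Sgk1 was in 15.1, 25.3, 95.2 and 71.9% of oligodendrocytes and 41.3, 38.2, 54.6 and 51.9% of microglia-marker cells. Cdkn1a was in 5.66, 9.99, 83.3 and 36.9% against 30.1, 27.7, 60.9 and 35.0%. Sgk1 and Cdkn1a were thus found in most oligodendrocytes of the MCAO/R + WT mice, above the share in microglia-marker cells.

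Serpina3n was near 0 in sham mice, in 0.0891, 0.469, 14.9 and 21.3% of oligodendrocytes against 0, 0.167, 4.2 and 8.57% of microglia-marker cells. In all other filtered cells together it was also high after MCAO/R, at 101 CPM in WT and 85.3 CPM in Lrg1-/-, against 127 and 120 CPM in the oligodendrocytes. C4b was in 1.36, 5.64, 3.49 and 23.0% against 0.600, 1.57, 2.90 and 5.0%, with the widest margin in MCAO/R + Lrg1-/-. Single mice were not above the reference, as MCAO/R + WT mouse 2 at 2.47% lay below its lowest library (2.6%) and sham + Lrg1-/- mouse 2 at 1.41% within its range of 1.3 to 2.0%. Car2 fell in share from 92.8 and 82.0% in sham to 52.4 and 67.8% after MCAO/R, against 9.03, 31.5, 3.40 and 25% of microglia-marker cells. Ptgds was in 90.2, 82.9, 98.6 and 92.2% of oligodendrocytes and 22.0, 51.7, 53.6 and 64.3% of microglia-marker cells. Apod was in 81.8, 69.5, 88.4 and 87.1% against 7.17, 19.2, 21.7 and 51.4%. For both genes the microglia-marker share was also higher after MCAO/R than after sham in each genotype.

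Surgery passed a two-sided exact permutation test with Benjamini-Hochberg adjustment over 24 tests (12 genes, 2 factors, n = 11) for Fkbp5, Sgk1, Cdkn1a, Serpina3n, C4b, Ptgds and Apod (each p = 0.005, the smallest possible, adjusted p = 0.015) and for Car2 (p = 0.01, adjusted p = 0.0267). It did not for Il33 (adjusted p = 0.104), Hopx, Anxa5 and Egr2. Genotype passed for Fkbp5 alone, with -15.6 percentage points on average (adjusted p = 0.015), and not for C4b (11.9 points, adjusted p = 0.06) or Cdkn1a (-21.03 points, adjusted p = 0.158). These are averages over unlike strata. Fkbp5 means were 1.83% in WT and 0.720% in Lrg1-/- after sham, and 53.4 and 23.3% after MCAO/R. Those of Cdkn1a went in opposite directions, 5.66 and 9.99% after sham and 83.3 and 36.9% after MCAO/R. The genotypes were not tested within either surgery alone.

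Within libraries, cells with Serpina3n more often also held C4b. In the MCAO/R + WT mice 7.53 and 6.10% of Serpina3n-positive and 3.87 and 1.96% of Serpina3n-negative cells had a C4b UMI, and in the MCAO/R + Lrg1-/- mice 43.5, 33.7 and 22.5% against 24.4, 21.8 and 13.7%. The order was the same in 5 of 5 mice. For Cdkn1a the shares were 88.2 and 84.0% of Serpina3n-positive and 83.1 and 82.4% of Serpina3n-negative cells in MCAO/R + WT, and 26.1, 38.5 and 46.4% against 26.0, 38.7 and 46.0% in MCAO/R + Lrg1-/-. These shares are descriptions of cells from the same libraries, without a test.

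**Figure D5:**
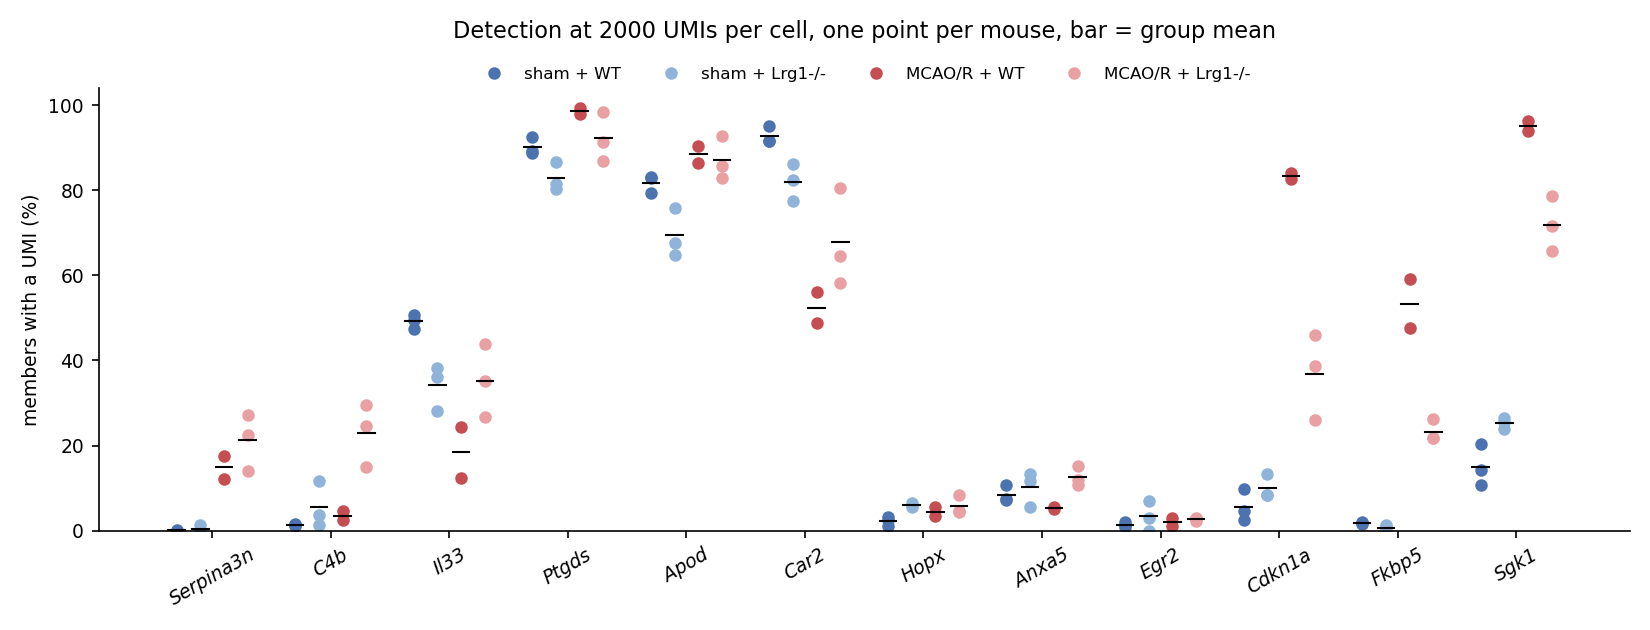
Share (%) of Klk6-negative mature oligodendrocytes with at least 1 UMI of 12 genes after thinning to 2000 UMIs per cell (points are mice, bars group means). Sgk1, Cdkn1a and Fkbp5 are detected in most cells of both MCAO/R + WT mice or close to it (group means 95.2, 83.3 and 53.4%) and in fewer cells of the MCAO/R + Lrg1-/- mice (71.9, 36.9 and 23.3%), whereas C4b is most often detected in MCAO/R + Lrg1-/- (23.0%).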

How the data were processed

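Right brain suspensions of 11 mice were profiled by droplet scRNA-seq. The submitters' processing notes name Cell Ranger and STAR with the mm10 genome, and the authors deposited raw UMI counts per gene and cell for each library, with 0 sample columns left unused. From these counts, cells with over 500 genes, over 1000 UMIs and under 25% mitochondrial UMIs were kept, and the members were selected by their markers and the absence of Klk6. The members and gene lists were chosen with earlier results of these data known. Counts of members were summed per mouse and tested with the quasi-likelihood test of edgeR 4.0.16 (R 4.3.3) over all 11 libraries and 4 groups, with TMM scaling and Benjamini-Hochberg adjustment. A call needed an adjusted p under 0.05 and a natural log fold change of at least 0.25 in size. The procedure was tested on simulated data.

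Named genes were the 10 called genes with the largest rise and the 10 with the largest fall that had at least 20 CPM in one group, did not overlap between groups and were at least as high in the members as in other cells. Up to 4 called genes per list were added, and Tsc22d3 was named after its value was seen. Some genes that the rule named are not reported here. Shares were compared by two-sided exact permutation within strata of the other factor. CPM per mouse are on TMM-scaled library sizes, whereas levels set beside other cells are CPM without that scaling. Alternatives included DESeq2 1.42.0, no filter on low counts, other marker limits, a mitochondrial limit of 10%, thinning to 1000 UMIs, removal of the 6% of cells with the highest doublet score, and leaving out each library. In the main analysis doublets were removed only through the markers of other cell types. Intervals and floors cover counting error only. The labels name separate mice as replicates. Python 3.11.15, NumPy 2.4.6, pandas 2.3.3, SciPy 1.17.1, scanpy 1.11.5 and matplotlib 3.10.9 were used.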

Additional observations from a re-analysis of the deposited data

Results flagged for a closer look

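The response to MCAO/R differed between genotypes in 40 of the genes named in the comparisons. The test was the interaction term of the edgeR model at an adjusted p under 0.05. Over all 14479 tested genes the interaction was called in 3.65%. The named genes were chosen largely for the size of their change in comparisons of the same mice. Their count is therefore a list and says nothing of enrichment. The values below are the log2 fold change of MCAO/R against sham in Lrg1-/- minus that in WT, and 20 were more positive and 20 more negative in Lrg1-/-.

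Among glucocorticoid-responsive and stress genes the difference was -2.87 for Cdkn1a, -2.59 for Plin4, -2.34 for Pdk4, -1.97 for Sgk1, -1.96 for Zbtb16, -1.74 for Arrdc2, -1.72 for Fkbp5, -1.63 for Mt1, -1.70 for Ddit4 and -1.18 for Bnip3. Each of these responded more weakly in Lrg1-/- over all cells. Over the whole list of 29 hypoxia and glycolysis genes, 5 had a more positive and 1 a more negative effect. The calls were lost in the myelin-rich set for Fkbp5, Arrdc2, Bnip3, Pdk4, Zbtb16 and Plin4 (edgeR adjusted p = 0.189, 0.151, 0.276, 0.0686, 0.0603 and 0.0581). In that order they differed there by -1.55, -1.54, -0.71, -1.91, -1.47 and -2.32. Without MCAO/R + WT mouse 2 the values over all cells were -1.44, -1.49, -1.26, -2.20, -1.76 and -2.54. The kinase gene Sgk3 differed by -2.69.

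Among genes that responded more in WT it was -5.15 for Ptprr, -4.78 for Adam11, -4.19 for Phf11c, -3.51 for Sox4, -3.28 for 9430041J12Rik, -2.92 for Setdb2, -2.81 for Tspan4 and -2.71 for Phactr3. Of these 9430041J12Rik differed by -1.25 in the myelin-rich set (edgeR adjusted p = 0.674), where the calls for Phf11c and Setdb2 were also lost (0.121 and 0.0646). The values of the latter 2 there were -3.60 and -2.62. AY036118, which changed by -0.12 in WT and -1.92 in Lrg1-/-, differed by -1.80.

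Myelin, connexin and lipid genes had more positive values. They were 1.33 for Gjb1, 1.24 for Pllp, 0.77 for Gsn, 0.74 for Gal3st1, 1.34 for Dhcr7, 1.16 for Fdps and 1.02 for Hmgcs1. Car2, Qdpr, Slc6a9 and Rtn4 differed by 1.72, 1.16, 1.14 and 0.73.

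Genes of endoplasmic reticulum folding differed by 1.87 for Sdf2l1, 1.52 for Calr, 1.42 for Pdia6 and 0.94 for Hsp90b1. Their values in the myelin-rich set were 0.97, 0.97, 0.69 and 0.64, with edgeR adjusted p of 0.162, 0.0666, 0.217 and 0.0825. The remaining values were 2.20 for Padi2, 2.12 for B230206H07Rik, 1.38 for Ptprn, 1.22 for Jph4 and 1.16 for Ftl1, the last of which was 0.12 in the myelin-rich set (edgeR adjusted p = 0.838).

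Of the 40 genes 24 kept an adjusted p under 0.05 in the myelin-rich set, 13 with more positive and 11 with more negative values. That set was chosen by myelin UMIs, and the 13 include myelin genes such as Gjb1 and Pllp. Without MCAO/R + WT mouse 2 it was 13, of which 2 (Fdps and Pdia6) were more positive and 11 more negative, so that 18 of the 20 more positive values lost their call without that mouse, which leaves MCAO/R + WT with 1 mouse that is assumed to vary like the mice of the other groups. The sizes moved less, to between 0.830 and 1.29 times the value with it for the more positive and between 0.833 and 1.19 times for the more negative ones. In both analyses 10 kept it, 1 more positive and 9 more negative.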

How the results depend on the processing

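Counts of called genes depended on the cells summed and on single libraries, and the cause was not tested. For MCAO/R against sham in WT the calls numbered 942 after thinning to 1000 UMIs and 1482 to 3084 when single libraries were left out. In Lrg1-/- they numbered 902 without any marker of other cells, 1381 with at least 5 markers, 983 with all 6, 340 after thinning, 928 with at least 1% myelin UMIs, 739 in the myelin-rich set, 1138 with only the groups compared, 972 among genes at least as high as in other cells, and 1109 to 2523 by left-out library. For Lrg1-/- against WT after MCAO/R they numbered 2783, 2877 with all 6 markers, 1620 after thinning, 2756, 2258 in the myelin-rich set, 2171 among genes at least as high as in other cells, and 1849 to 4635. After sham they numbered 2218 without a filter on low counts, 555 without likely doublets, 449 without any marker of other cells, 638 with all 6, 108 after thinning, 571, 488 in the myelin-rich set, 758, and 534 to 1526. For the interaction they numbered 980 with the DESeq2 test, 1547 without a filter, 281, 95 after thinning, 316, 319, and 65 to 685. For Klk6-negative against Klk6-positive cells they numbered 1069 without any marker of other cells, 455 after thinning, and 1794 to 2036 by left-out library.

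Replicate numbers did not pair the samples, with correlations of same-numbered mice between -0.276 and 0.246. With the replicate number as a block the calls numbered 2706 between genotypes after MCAO/R, 244 after sham and 322 for the interaction. In the Klk6 contrast, where both kinds of cell came from the same mouse, calls without the replicate block numbered 406.

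The surgery difference in the Klk6-negative share was -6.13 points without any marker of other cells (p = 0.02), -9.75 without thinning (p = 0.02) and -7.25 at 3000 UMIs (p = 0.035), by the exact permutation test. The genotype difference in that share lay between -1.94 and 0.495 by left-out library, and turned to 0.350 and 0.495 without MCAO/R + WT mouse 2 or MCAO/R + Lrg1-/- mouse 2. In place of -0.646 it was -3.14 at 3000 UMIs, -2.63 without any marker of other cells, -2.20 with at least 5 markers and -1.70 under 10% mitochondrial UMIs. The genotype difference in the share of all filtered cells was -2.10 without any marker of other cells, and its p was no longer under 0.05 in 8 of 11 left-out analyses, and over all 11 it lay between -6.96 (without MCAO/R + WT mouse 1) and -2.65. The surgery difference in it was between 0.734 and 5.04 by left-out library.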
